A study of Mus musculus with 8 samples.

Results

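Lungs that had received single-walled carbon nanotubes (SWCNT) 7 days earlier were compared, gene by gene, with lungs that had received the solvent alone. The comparison used 4 of the 8 single-colour Affymetrix arrays of the study: 2 of SWCNT day 7 and 2 of PF68 day 7. The mice were adult males of ICR, an outbred stock, aged 5 to 6 weeks. Under pentobarbital, each was instilled once through the trachea with 50 µl of PF68 (Pluronic F-68 at 0.1%), which carried either 0.5 mg SWCNT or no tubes. PF68 is a surfactant that holds the tubes in suspension, and both groups received it, so its own effect was not measured here. Total RNA came from lobe 1 of the right lung, so each array reads a mixture of all cells of that lobe. The other 4 arrays, SWCNT and PF68 on day 1, entered the fit to share its estimate of the spread and served for the comparison between days. Genes were taken from non-control probe sets with 1 gene symbol, each gene by the probe set with the highest mean over the 8 arrays. This gave 18191 genes. Of these, 13815 reached the median signal of the array on 2 or more of the 8 arrays and were tested, and the other 4376 were too dim.

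Inhaled or instilled fibres and particles that the lung cannot dissolve are taken up by alveolar macrophages, the phagocytes of the air spaces. Macrophages that hold such material enlarge, fill with lysosomes and lipid, may fuse into multinucleated giant cells, and can gather with fibroblasts into granulomas. The study's labels describe day 7 as its sub-chronic phase, after the acute phase of day 1, and its design text names granulomas and lesions resembling chronic obstructive lung disease as the background of the work. The question put to the arrays was which transcripts differ between SWCNT and solvent at that time.

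All values are the authors' deposited signals, read as log2, and every difference is SWCNT minus PF68 in log2 units with its standard error (SE) from the limma fit, n = 2 arrays per group. The arrays shared 1 distribution, with a median of -0.628, and signals below that median are called dim. Rose and fell mean higher or lower in SWCNT than in PF68 of the same day, not a change over time. Across probe sets the Pearson correlation was 0.942 between the PF68 arrays, 0.959 between the SWCNT arrays and 0.931 to 0.935 across groups, a description over genes that are not independent. The 3′ minus 5′ signal, which rises as RNA is shortened, was 3.29 and 3.25 for beta-actin in PF68 and 2.99 and 2.94 in SWCNT. For Gapdh it was 2.52 and 2.29 in PF68 and 2.31 and 2.11 in SWCNT. The bacterial hybridization spikes (18 probe sets) averaged 5.36 and 5.27 in PF68 and 4.78 and 4.80 in SWCNT. These values moved with the groups, and their part in the differences below was not tested. The labels call the arrays biological replicates without naming animals, so p-values measure the spread between these arrays only, which may be technical. An exact permutation test of 2 against 2 arrays cannot go below p = 0.333, so calls come from the fit across all genes. In a bulk lobe, fewer cells of a type and less RNA per cell cannot be told apart.

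Genes of macrophage proteolysis, lysosomes, scavenging and extracellular matrix were among those higher in SWCNT lungs on day 7. Genes of airway secretion and xenobiotic metabolism were among those lower. Neutrophil genes went both ways, with 4 of 31 called higher and 5 lower. At an adjusted p of 0.05 (limma, Benjamini-Hochberg), 317 of 13815 genes were called, or 2.29%. Of these, 204 were higher (1.48% of genes tested) and 113 lower (0.818%), and 155 differed by at least 1 log2 unit, 98 higher and 57 lower. The smallest called difference was 0.599 in size, while the median over all genes tested was 0.0209. By limma, 3199 of the 13815 genes tested had an unadjusted p under 0.05, the share to set beside such counts in the lists below. In all 317 the SWCNT and PF68 arrays did not overlap, but neither did they in 53.2% of all genes tested (28.2% with SWCNT above, 25.0% below), so non-overlap alone sets few genes apart. With arrays scaled to the spikes, 98.6% of called genes were higher instead of 64.4%, since that scaling moved the median gene to 0.549. Calls needed both SWCNT arrays: without SWCNT day 7 replicate 1 or replicate 2 no gene was called by limma, with 2315 and 2237 genes at an unadjusted p under 0.05, against 3199 with all arrays. Leaving out PF68 day 7 replicate 1 or 2 left 2 and 3 called genes, either PF68 day 1 array 4, and either SWCNT day 1 array 7.

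**Figure D1:**
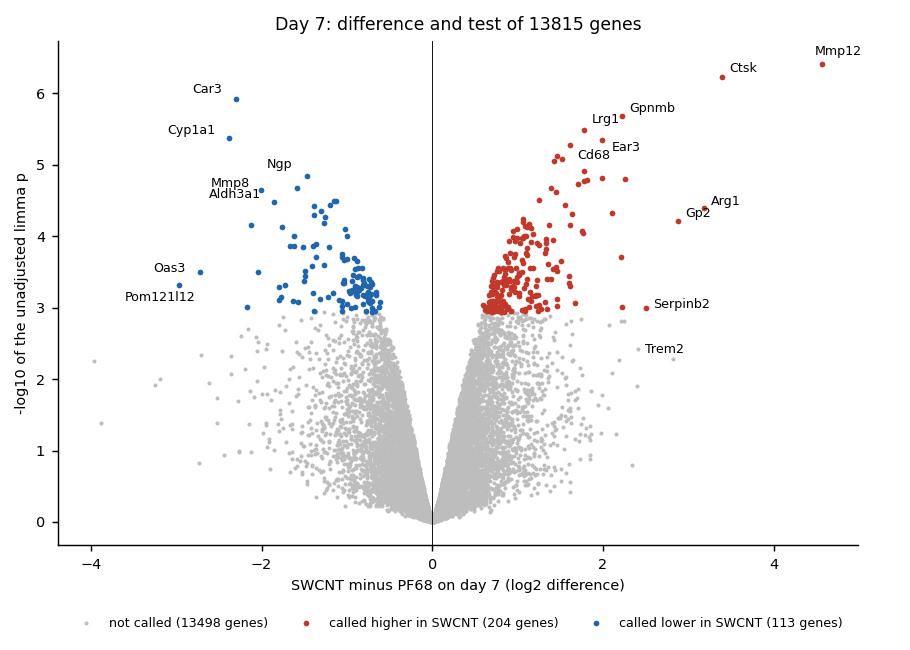
Each point is 1 of the 13815 genes tested, with the SWCNT minus PF68 difference on day 7 (log2) on the horizontal axis and the −log10 of its unadjusted limma p on the vertical axis. The 204 genes called higher and the 113 called lower are coloured, and Mmp12 at 4.57 and Ctsk at 3.39 stand farthest to the right.

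Proteases of macrophages had the largest rises. Mmp12, the metalloelastase of macrophages, read -1.46 and -1.01 in PF68 and 3.33 and 3.34 in SWCNT, so the gene went from dim to well above the median and rose by 4.57 ± 0.18 (limma, adjusted p = 0.00411). The other 3 called members of the list of matrix metalloproteinases, ADAM proteases and their inhibitors were lower. Mmp8, the collagenase stored by neutrophils, read 2.10 and 2.18 in PF68 and -0.04 and 0.32 in SWCNT and fell by 2.0 (SE 0.16, adjusted p = 0.015). Mmp9, a gelatinase of neutrophils and macrophages, read 1.97 and 1.97 in PF68 and 1.15 and 0.97 in SWCNT (-0.91 ± 0.12). Adam33, an ADAM protease known from mesenchymal cells of the airway wall, read 0.32 and 0.43 in PF68 and -1.16 and -1.14 in SWCNT (-1.52 ± 0.17), and its other probe set differed by -0.07. Of the 31 members tested out of 39 listed, 1 was called higher and 3 lower, with a median of 0.15. Timp1, an inhibitor of metalloproteinases, read 0.99 and 1.42 in PF68 and 2.07 and 2.27 in SWCNT and was not called (0.96 ± 0.18, adjusted p = 0.0569).

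Cathepsins, the acid proteases of the lysosome, are grouped here with their inhibitors, the cystatins. Of 16 tested members (19 listed), 8 were called higher, all of them cathepsins, and none lower. Their median difference was 0.72, and in 13 of the 16 both SWCNT arrays lay above both PF68 arrays. Ctsk, the collagen-cleaving cathepsin K of osteoclasts and giant cells, read 0.90 and 0.61 in PF68 and 4.12 and 4.17 in SWCNT and rose by 3.39 ± 0.15 (adjusted p = 0.00411). The other 7 were abundant in both groups and rose by less. Ctss, the cathepsin that trims the invariant chain of MHC class II, read 5.56 and 5.59 in PF68 and 6.70 and 6.59 in SWCNT (1.07 ± 0.10). Ctsd, an aspartic protease, read 5.75 and 5.91 in PF68 and 6.73 and 6.76 in SWCNT (0.92 ± 0.12). For Ctsz, Ctsl, Ctsh, Ctsb and Ctsc the differences were 1.08, 1.00, 0.95, 0.85 and 0.74, with adjusted p from 0.0231 to 0.042. Probe sets of Ctsb and Ctsl disagreed in sign. The 4 further probe sets of Ctsb gave 0.94, 1.61, -0.92 and 1.32, and the other one of Ctsl gave -0.29. The negative ones were dim. Those of Ctsc gave 0.05 and 0.55, below the 0.74 of the one used.

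Promoters of 4 of the genes called higher are shown, picked because they hold letters that known factors bind. The 4 genes come from different lists, and whether these factors act on them here was not tested. The first 3 hold TGANTCA, the letters bound by AP-1, and Ctsd holds CACGTG, the E-box at the core of the element found in many lysosomal genes. The windows run from 250 bases before to 50 after the annotated start, are written 5′ to 3′ on the gene's strand from RefSeq (GRCm38.p6), and have the matches in capitals.
Mmp12: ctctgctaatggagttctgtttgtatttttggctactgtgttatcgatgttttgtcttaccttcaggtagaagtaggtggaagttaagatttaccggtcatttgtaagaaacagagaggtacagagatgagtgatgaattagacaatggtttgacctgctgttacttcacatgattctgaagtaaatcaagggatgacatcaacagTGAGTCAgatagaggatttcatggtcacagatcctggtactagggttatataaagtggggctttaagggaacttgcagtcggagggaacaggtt
Gpnmb: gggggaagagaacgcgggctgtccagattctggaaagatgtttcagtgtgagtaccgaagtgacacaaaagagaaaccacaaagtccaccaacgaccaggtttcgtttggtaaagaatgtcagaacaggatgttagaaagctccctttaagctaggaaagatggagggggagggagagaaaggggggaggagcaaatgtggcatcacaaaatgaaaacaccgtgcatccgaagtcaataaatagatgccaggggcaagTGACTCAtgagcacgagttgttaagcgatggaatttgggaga
Cd68: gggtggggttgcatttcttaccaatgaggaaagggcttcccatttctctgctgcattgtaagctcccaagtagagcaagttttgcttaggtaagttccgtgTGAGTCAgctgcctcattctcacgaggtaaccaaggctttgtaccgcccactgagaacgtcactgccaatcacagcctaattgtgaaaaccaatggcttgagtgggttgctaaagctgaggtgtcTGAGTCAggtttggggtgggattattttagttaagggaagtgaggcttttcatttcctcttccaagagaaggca
Ctsd: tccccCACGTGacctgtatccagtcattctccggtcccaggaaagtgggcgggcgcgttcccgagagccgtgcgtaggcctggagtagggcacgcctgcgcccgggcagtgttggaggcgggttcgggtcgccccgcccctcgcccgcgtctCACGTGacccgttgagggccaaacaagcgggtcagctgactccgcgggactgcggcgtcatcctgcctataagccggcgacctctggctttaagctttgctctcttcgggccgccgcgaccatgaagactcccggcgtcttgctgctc
The windows lie at chr9:7347124-7347423 (plus strand), chr6:49036268-49036567 (plus), chr11:69666121-69666420 (minus) and chr7:142387778-142388077 (minus). The match of Mmp12 begins 44 bases before the start of this transcript, at -44, and a second annotated start of the gene has none in its window. That of Gpnmb begins at 8, those of Cd68 at -149 and -24, and those of Ctsd at -245 and -98. Over both strands, TGANTCA was found in 22 of the 159 called higher genes with a promoter in the table (13.8%), in 10 of 89 called lower (11.2%), in 6.8% of the 11103 tested genes with one and in 7.81% of all 32851 windows. CACGTG was found in 10.7% of the genes called higher, 11.2% of those called lower, 11.0% of those tested and 7.15% of windows. GCGTG, the core bound by the aryl hydrocarbon receptor, had 44.0%, 44.9%, 52.5% and 32.4% in the same order. The STAT6 motif, an inverted repeat with a spacer of 4 bases, had 8.81%, 4.49%, 6.47% and 6.95%. Genes can have several windows, and the motifs can overlap one another. These shares describe letters in a window, not sites in use.

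**Figure D2:**
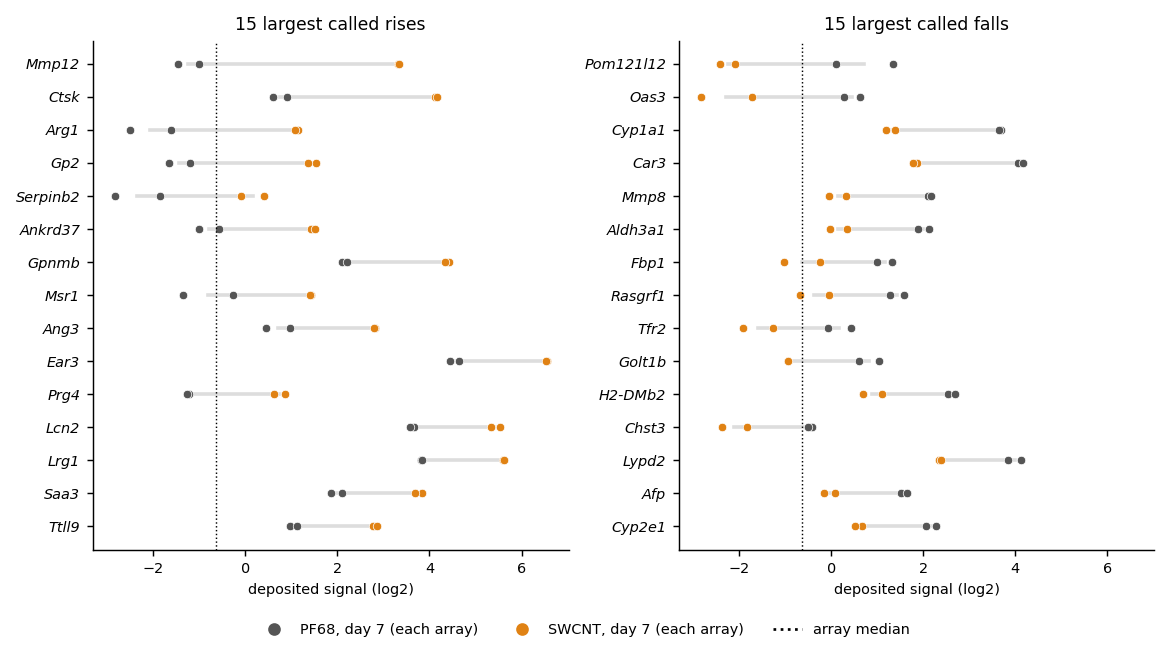
Deposited signal (log2) on each of the 4 day 7 arrays for the 15 largest called rises (left) and the 15 largest called falls (right), 1 line per gene and 1 point per array, coloured by group (SWCNT or PF68). Mmp12, Ctsk and Arg1 lead the rises, and Pom121l12, Oas3 and Cyp1a1 the falls. Only genes without overlap of the groups were eligible, so the absence of overlap follows from the choice.

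A minority of the genes known from lipid-laden and giant-cell macrophages rose, and the others were not called. Gpnmb, a glycoprotein of lipid-loaded macrophages, read 2.11 and 2.21 in PF68 and 4.43 and 4.34 in SWCNT and rose by 2.23 ± 0.12 (adjusted p = 0.00712; 1.12 in its other probe set). Apoe, which carries cholesterol out of macrophages, read 3.59 and 3.46 in PF68 and 4.60 and 4.66 in SWCNT (1.10 ± 0.11). Plin2, the coat of lipid droplets, read 5.05 and 4.90 in PF68 and 5.75 and 5.86 in SWCNT (0.83 ± 0.12). Together with Cd9, a tetraspanin (0.76 ± 0.10), these made 4 called higher and none lower of 23 tested lipid-laden macrophage genes (25 listed), with a median of 0.37. Trem2, a lipid-sensing receptor, was the largest of those not called: the PF68 arrays were -1.58 and -0.28 and the SWCNT arrays 1.52 and 1.43. Its difference was 2.41 ± 0.52, with the spread pooled over all 4 groups (limma adjusted p = 0.0725). In the list of osteoclast and giant cell genes 2 of 14 tested (21 listed) were called higher, Ctsk and Atp6v0d2, and none lower, with a median of 0.19. Atp6v0d2, a proton pump subunit of osteoclasts and alveolar macrophages that takes part in cell fusion, read 2.19 and 2.25 in PF68 and 3.18 and 3.47 in SWCNT (1.11 ± 0.13; 0.38 in its other probe set).

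Lysosomal genes other than cathepsins held few calls. Of 37 tested lysosomal hydrolases and membrane proteins (42 listed), 2 were called higher and 1 lower, with a median of 0.13. Cd68, a lysosomal membrane protein of macrophages, read 2.68 and 2.59 in PF68 and 4.24 and 4.26 in SWCNT and rose by 1.61 ± 0.10 (adjusted p = 0.00912). Psap, the precursor of the saposins that help break down sphingolipids, rose by 0.77 ± 0.12. Mcoln1, a calcium channel of the lysosome, read 2.67 and 2.65 in PF68 and 1.84 and 1.84 in SWCNT and fell by 0.82 (SE 0.11), with its other probe sets at -0.84 and -0.57. Among 17 vacuolar proton pump subunits only Atp6v0d2 was called, and the median was 0.15. The sign of the Mcoln1 fall was therefore opposite to that of the other lysosomal genes called.

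Receptors by which phagocytes bind particles and microbes were called higher in 5 of 31 cases and lower in none (32 listed; median 0.55, and 21 without overlap on the higher side). Msr1, the class A scavenger receptor, read -0.28 and -1.35 in PF68 and 1.42 and 1.41 in SWCNT (2.23 ± 0.36, adjusted p = 0.0483). Its other probe sets gave 0.09, 1.26 and 1.46. Olr1, a receptor for oxidized lipoprotein, read 0.61 and 0.65 in PF68 and 1.96 and 1.98 in SWCNT (1.34 ± 0.15). Clec4n and Clec7a, the lectins dectin-2 and dectin-1 that recognize fungal walls, rose by 1.24 ± 0.19 and 1.09 ± 0.13. Fcer1g, the signalling chain that Fc receptors and dectin-2 share, rose by 0.90 ± 0.12. Marco, a scavenger receptor of alveolar macrophages, was higher in both SWCNT arrays but was not called (0.28 ± 0.11, adjusted p = 0.197). It was chosen after its values were seen.

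Markers of alternative activation, the state that interleukin-4 and interleukin-13 induce, were called higher in 4 of 22 cases and lower in none (24 listed; median 0.50). Arg1, which turns arginine into ornithine, read -2.50 and -1.62 in PF68 and 1.15 and 1.08 in SWCNT and rose by 3.18 ± 0.29 (adjusted p = 0.0188). Retnla, a resistin-like secreted protein, read 5.20 and 5.10 in PF68 and 6.18 and 6.17 in SWCNT (1.02 ± 0.11). Chia1, the acidic chitinase, read 4.19 and 4.23 in PF68 and 4.92 and 4.93 in SWCNT (0.72 ± 0.10). The remaining member called was Fn1, fibronectin, described with the matrix genes. None of 14 tested genes of classical activation was called by limma, with 1 higher and 2 lower at an unadjusted p under 0.05 and a median of 0.12. A pair of ribonuclease genes also stood among the largest rises. Ear3, an eosinophil-associated ribonuclease, read 4.65 and 4.45 in PF68 and 6.55 and 6.53 in SWCNT (1.99 ± 0.12), on a probe set that can bind near-identical family members, so the member is uncertain. Ang3, of the angiogenin family, read 0.97 and 0.44 in PF68 and 2.82 and 2.81 in SWCNT (2.11 ± 0.20).

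Of the cell types that carry such genes, the alveolar macrophage list had 4 of 25 called higher and none lower (28 listed; median 0.42, with 19 without overlap on the higher side). The list of monocytes and recruited macrophages had 3 of 28 higher and 1 lower, F13a1 (median 0.16). F13a1, a coagulation factor subunit made by some monocytes, fell by 0.83 (SE 0.12). The lists share genes with those above and are not separate evidence. Siglecf, a surface marker of alveolar macrophages chosen after its values were seen, read 0.90 and 0.92 in PF68 and 1.41 and 1.71 in SWCNT and was not called (0.65 ± 0.15, adjusted p = 0.0803). Eosinophils carry Siglecf as well, and none of 10 eosinophil, basophil and mast cell markers was called (limma; 1 higher and 2 lower at an unadjusted p under 0.05, median -0.35).

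Chemokines that draw monocytes were called higher in 3 of 16 CC chemokines and lower in none (20 listed; median 0.39). Ccl3 read -1.99 and -1.58 in PF68 and 0.13 and -0.16 in SWCNT (1.77 ± 0.19), dim in both PF68 arrays. Ccl9 read 3.54 and 3.64 in PF68 and 4.98 and 4.97 in SWCNT (1.39 ± 0.11; 1.77 in its other probe set) and Ccl8 read 0.20 and 0.49 in PF68 and 1.40 and 1.28 in SWCNT (0.99 ± 0.14). Cxcl5, a neutrophil attractant made by alveolar epithelium, was the only one of 16 CXC chemokines called (1.67 ± 0.27; median 0.05), and 3 of its 4 arrays lay below the median. No member was called by limma among 13 chemokine receptors (2 higher and 2 lower at an unadjusted p under 0.05), 22 inflammasome and interleukin-1 family genes (8 and 1) and 23 cytokine and feedback genes of the NF-kappaB pathway (4 and 0). Their medians were -0.18, 0.38 and 0.13. Among all genes tested, 3199 of 13815 passed the same unadjusted cut. Il1b read 2.27 and 2.44 in PF68 and 2.57 and 2.62 in SWCNT and Ccl2 read -0.14 and 0.00 in PF68 and 0.19 and -0.48 in SWCNT. The Il1b groups did not overlap, at a difference of 0.24 ± 0.16, and those of Ccl2 did, at -0.07 ± 0.29 (both chosen after their values were seen).

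A minority of extracellular matrix genes was higher in SWCNT than in PF68 lungs on day 7. Called higher were 4 of 25 collagens and 5 of 37 genes of elastic fibres, crosslinking and proteoglycans. None was lower in either list (27 and 41 listed, medians 0.14 and 0.16). Fn1, fibronectin, read 3.78 and 3.83 in PF68 and 5.26 and 5.28 in SWCNT (1.46 ± 0.10, 2.76-fold, adjusted p = 0.0112), while its other probe set differed by 0.04. Mfap4, a protein bound to elastic fibres, read 3.48 and 3.15 in PF68 and 4.87 and 4.88 in SWCNT (1.56 ± 0.14). Eln, elastin itself, read 4.02 and 3.95 in PF68 and 5.01 and 5.08 in SWCNT (1.06 ± 0.10; 1.26 in its other probe set). In all 3 genes the SWCNT arrays lay close together, and above both PF68 arrays as in every gene called higher. Lox, the enzyme that crosslinks elastin and collagen, read 1.76 and 1.84 in PF68 and 3.35 and 3.30 in SWCNT (1.52 ± 0.10), with other probe sets at -0.05 and 1.82. Has1, a hyaluronan synthase, was the fifth of that list and rose by 0.97 ± 0.14.

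The called collagens were those of the fibrils that fibroblasts lay down. Col3a1 read 5.00 and 5.02 in PF68 and 5.80 and 5.82 in SWCNT (0.80 ± 0.11; 1.45 in its other probe set). Col1a2 read 3.27 and 3.52 in PF68 and 4.23 and 4.20 in SWCNT (0.82 ± 0.12), with other probe sets at 1.30 and -1.02, and Col1a1 read 1.60 and 1.56 in PF68 and 2.27 and 2.36 in SWCNT (0.73 ± 0.12; 0.14 in its other probe set). Col5a2, of a collagen that starts fibrils, rose by 0.70 ± 0.11. Every one of these rises was under 1 log2 unit. For Col1a1, Col1a2, Col3a1 and Col5a2 the SWCNT day 7 means were 2.32, 4.21, 5.81 and 2.91. Their PF68 day 1 means were higher, at 2.92, 4.55, 5.84 and 3.05. Profibrotic growth factors and matricellular proteins had 1 of 37 called higher and none lower (40 listed; median 0.03). It was Ltbp2, a protein of microfibrils (0.77 ± 0.13). Tgfb1, the central profibrotic cytokine, read 1.93 and 1.63 in PF68 and 1.78 and 2.04 in SWCNT, with overlapping groups (0.12 ± 0.16; chosen after its values were seen). In the fibroblast and pericyte list 4 of 35 were higher and 1 lower, Cox4i2, a subunit of cytochrome oxidase found in pericytes, which read 1.47 and 1.74 in PF68 and 0.41 and 0.38 in SWCNT (fell by 1.21, SE 0.14). That list's median was 0.09.

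**Figure D3:**
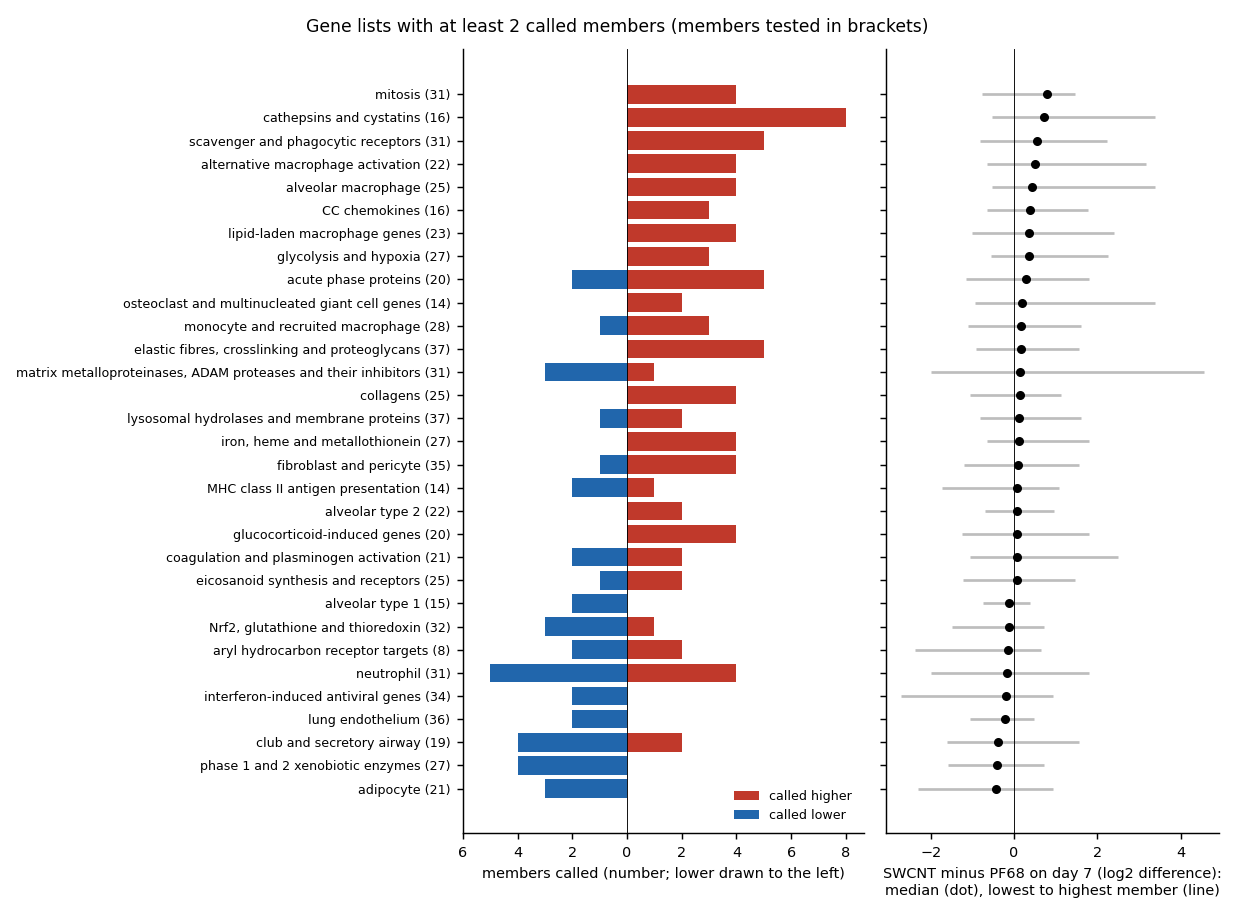
The 31 gene lists with at least 2 called members, 1 per line, with bars for the number of members called higher (right) and lower (left) in the left panel. The right panel gives each list's median difference (dot) and lowest to highest member (line) on day 7 in log2 units, and the medians up to 0.80 for mitosis, 0.72 for cathepsins and cystatins and 0.55 for scavenger and phagocytic receptors.

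Genes of mitosis had the highest median of the 68 lists, 0.80 over 31 tested (40 listed). Of these, 4 were called higher and none lower, and in 22 of the 31 both SWCNT arrays lay above both PF68 arrays, with none below. The mean level of the list was -0.53 and -0.52 in the PF68 arrays and 0.21 and 0.11 in the SWCNT arrays. Top2a, the topoisomerase of dividing cells, read -0.54 and 0.07 in PF68 and 1.12 and 1.35 in SWCNT (1.46 ± 0.23; -0.17 and 0.98 in other probe sets). Cdca8, of the chromosomal passenger complex, read -0.96 and -1.22 in PF68 and 0.24 and 0.25 in SWCNT (1.33 ± 0.14; 1.14 and 1.54). Kif22, a chromosome-binding kinesin, and Mad2l1, of the spindle checkpoint, rose by 1.22 ± 0.17 and 1.11 ± 0.13. Further probe sets of Kif22, both dim, gave 0.12 and 0.54. Mki67, the proliferation marker Ki-67, read 0.59 and -0.19 in PF68 and 1.79 and 1.49 in SWCNT, which did not pass the test (1.44 ± 0.28, adjusted p = 0.0609). DNA replication genes had a median of 0.21 over 31 tested, with none called higher and 1 lower, Fen1, the flap endonuclease (-1.05 ± 0.13). The other probe set of Fen1 differed by 0.19, and the one used can bind other transcripts.

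Acute phase proteins, which liver and lung epithelium make in inflammation, were called higher in 5 of 20 cases and lower in 2 (29 listed; median 0.28). The lower ones were S100a8 and S100a9, given with the neutrophil genes. Saa3, a serum amyloid A protein, read 2.09 and 1.87 in PF68 and 3.84 and 3.68 in SWCNT (1.78 ± 0.13). Lcn2, lipocalin that binds bacterial siderophores, read 3.65 and 3.59 in PF68 and 5.33 and 5.53 in SWCNT (1.81 ± 0.14). Lrg1, a secreted leucine-rich glycoprotein that the neutrophil list counts, read 3.81 and 3.85 in PF68 and 5.60 and 5.62 in SWCNT (1.78 ± 0.10, adjusted p = 0.00884). For each of these secreted proteins both SWCNT arrays lay above both PF68 arrays, as in every gene called higher. Lbp, which hands endotoxin to its receptor, rose by 0.80 ± 0.12. The metallothioneins Mt2 and Mt1, small zinc-binding proteins, read 3.46 and 3.63 in PF68 and 5.31 and 5.18 in SWCNT (1.70 ± 0.13) and 4.72 and 4.94 in PF68 and 5.77 and 5.72 in SWCNT (0.92 ± 0.12). The list of iron, heme and metallothionein genes had 4 of 27 higher and none lower (median 0.11). Among 25 complement genes C9, of the membrane attack complex, was the only one called. It read 0.12 and 0.14 in PF68 and -1.42 and -1.08 in SWCNT and fell by 1.38 (SE 0.23; list median 0.16).

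Neutrophil genes were called in both directions, with 4 of 31 higher, 5 lower and 22 not called (40 listed; median -0.16). S100a8 and S100a9, the calprotectin subunits of neutrophils and monocytes, read 7.26 and 7.28 in PF68 and 6.11 and 6.11 in SWCNT and 7.14 and 7.14 in PF68 and 6.01 and 6.02 in SWCNT. They fell by 1.16 and 1.13 (SE 0.10 for both, adjusted p = 0.0178 for both). Ngp, a granule protein of maturing neutrophils, read 1.93 and 1.92 in PF68 and 0.42 and 0.49 in SWCNT (fell by 1.47, SE 0.11), and Mmp8 and Mmp9 are described above. On the higher side stood Lcn2, Lrg1, Ltf (lactoferrin, 1.32 ± 0.16) and Wfdc21 (0.92 ± 0.13). Lcn2, Ltf and Lrg1 are made by epithelium as well as by neutrophils, so the list does not read that cell type alone. The mean level of its members was 1.99 and 2.0 in PF68 and 1.90 and 1.86 in SWCNT.

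**Figure D4:**
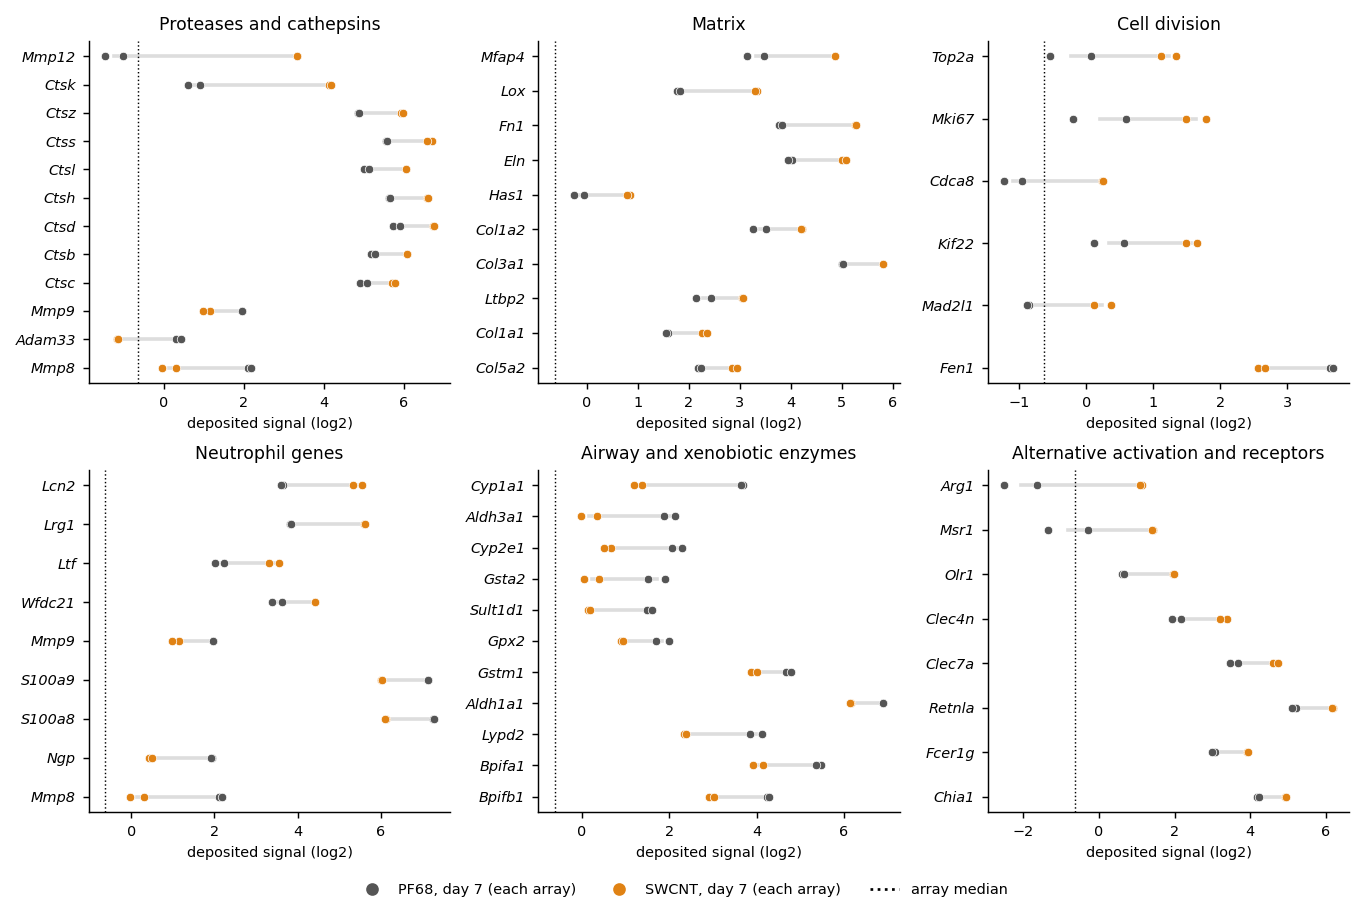
Deposited signal (log2) on each of the 4 day 7 arrays for named genes grouped by function, 1 panel per function, 1 line per gene and 1 point per array, coloured by group. The cathepsin and matrix genes drawn were all called higher. Their SWCNT points lie right of both PF68 points by that choice, since no called gene overlapped. Uncalled members of those lists are left out. Neutrophil genes lie on both sides, S100a8 with SWCNT at 6.11 and PF68 near 7.3.

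Some genes of xenobiotic metabolism fell, while most were not called. Cyp1a1, the cytochrome that the aryl hydrocarbon receptor induces, read 3.70 and 3.64 in PF68 and 1.38 and 1.18 in SWCNT and fell by 2.39 (SE 0.14, adjusted p = 0.00884). Aldh3a1, another target of that receptor, read 2.13 and 1.88 in PF68 and 0.34 and -0.03 in SWCNT (fell by 1.85, SE 0.16). Ahr, the receptor itself, went the other way, at 2.74 and 2.84 in PF68 and 3.41 and 3.43 in SWCNT (0.64 ± 0.10; -0.08 in its other probe set). Of 8 tested targets (16 listed) 2 were therefore called lower and 2 higher, the list counting Ahr and Nfe2l2 as members, with a median of -0.14. Phase 1 and 2 enzymes had none of 27 called higher and 4 lower (41 listed; median -0.42, with 17 without overlap on the lower side and 4 on the higher). Cyp2e1, an ethanol-metabolizing cytochrome, read 2.06 and 2.29 in PF68 and 0.67 and 0.51 in SWCNT (fell by 1.58, SE 0.13). Sult1d1, a sulfotransferase, read 1.49 and 1.61 in PF68 and 0.15 and 0.19 in SWCNT (fell by 1.38, SE 0.12; -0.55 in its other probe set). Aldh1a1 and Aldh1a7, aldehyde dehydrogenases, differed by -0.75 ± 0.12 and -0.71 ± 0.10.

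A few glutathione genes that Nrf2 controls fell, while the gene of Nrf2 rose. Nfe2l2, which encodes Nrf2, read 3.55 and 3.56 in PF68 and 4.16 and 4.16 in SWCNT (0.60 ± 0.10, adjusted p = 0.0483; 0.35 in its other probe set). Gsta2, a glutathione transferase, read 1.90 and 1.52 in PF68 and 0.38 and 0.05 in SWCNT (-1.49 ± 0.20). Gstm1, of another transferase class with near-identical members, read 4.67 and 4.79 in PF68 and 3.87 and 4.0 in SWCNT (-0.79 ± 0.11; -0.83, -0.36 and -0.72 in other probe sets). Gpx2, a glutathione peroxidase of epithelium, read 1.70 and 1.98 in PF68 and 0.88 and 0.93 in SWCNT (-0.94 ± 0.13). The list of Nrf2, glutathione and thioredoxin genes had 1 of 32 called higher and 3 lower (38 listed; median -0.13, with 17 without overlap on the lower side and 7 on the higher).

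Of 19 tested club and secretory airway genes (24 listed), 4 were called lower, 2 higher and 13 not at all, with a median of -0.39. Ltf, lactoferrin, given with the neutrophil genes, was 1 of the 2 called higher (1.32 ± 0.16). Bpifa1 and Bpifb1, antimicrobial proteins of the airway lining, read 5.46 and 5.36 in PF68 and 4.15 and 3.91 in SWCNT and 4.23 and 4.28 in PF68 and 2.90 and 3.01 in SWCNT. They fell by 1.38 and 1.30 (SE 0.13 and 0.12), and the other probe set of Bpifb1 differed by -1.31. Lypd2, a surface protein of secretory cells, read 4.13 and 3.85 in PF68 and 2.34 and 2.39 in SWCNT (fell by 1.62, SE 0.17). The main club cell secretoglobin Scgb1a1 read 8.10 and 8.31 in PF68 and 8.31 and 8.31 in SWCNT, with a difference of 0.11 ± 0.11, and Scgb3a1 0.02 ± 0.13 (both chosen after their values were seen). The highest value in the data was 8.31, so Scgb1a1 lay at the ceiling, where a further rise could not show. The mean level of the list was 3.38 and 3.50 in PF68 and 3.17 and 3.23 in SWCNT. Of 26 ciliated cell genes none was called by limma (2 higher and 5 lower at an unadjusted p under 0.05; median -0.17). That unadjusted cut was passed by 3199 of all 13815 genes tested. Foxj1, the factor that directs ciliated cells, read 2.45 and 2.20 in PF68 and 1.24 and 1.53 in SWCNT and was not called (-0.94 ± 0.18, limma adjusted p = 0.0609).

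The lists of alveolar epithelium and endothelium averaged above the array median on all 4 arrays, though single members did not, and they held few calls. Alveolar type 2 genes averaged 5.38 and 5.35 in PF68 and 5.51 and 5.46 in SWCNT, with 2 of 22 called higher, none lower and a median of 0.08. Sftpb, a surfactant protein, rose by 0.66 ± 0.11, while Sftpc, another, was not called (-0.17 ± 0.13; chosen after its values were seen). Alveolar type 1 genes averaged 5.22 and 5.17 in PF68 and 5.06 and 5.03 in SWCNT, with none of 15 called higher, 2 lower and a median of -0.11. Pdpn, podoplanin of the flat gas-exchange cells, read 5.46 and 5.39 in PF68 and 4.75 and 4.79 in SWCNT (fell by 0.66, SE 0.10), and Igfbp2, a growth factor binding protein, fell by 0.74 (SE 0.11). Lung endothelium averaged 3.68 and 3.73 in PF68 and 3.49 and 3.52 in SWCNT, with 2 of 36 called lower and none higher and a median of -0.22. Both SWCNT arrays lay below both PF68 arrays in 23 of the 36 and above in 6. Plvap, the diaphragm protein of fenestrated endothelium, read 4.87 and 4.76 in PF68 and 3.88 and 3.65 in SWCNT (fell by 1.05, SE 0.15). Flt1, a receptor for vascular endothelial growth factor, read 3.43 and 3.65 in PF68 and 2.51 and 2.63 in SWCNT (fell by 0.97, SE 0.15), with other probe sets from -0.71 to -0.46. The platelet list had 1 of 20 lower, Gp1bb (-0.88 ± 0.13; 0.48 in its other probe set), and a median of -0.24.

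Markers of tissue that can lie beside a lobe held few calls, most of them in the adipocyte list. Adipocyte genes averaged 1.94 and 1.93 in PF68 and 1.51 and 1.38 in SWCNT, with 3 of 21 called lower and none higher (28 listed; median -0.43). Car3, a carbonic anhydrase of fat and muscle, read 4.07 and 4.16 in PF68 and 1.86 and 1.77 in SWCNT and fell by 2.30 (SE 0.11, adjusted p = 0.00547), with other probe sets at -1.08, -1.30 and -0.82. Thrsp, a regulator of fat synthesis, and Nnat, a membrane proteolipid, differed by -1.49 ± 0.20 and -0.90 ± 0.13. The other probe sets of Thrsp gave -0.22 and 0.50. Adipoq, the adipokine adiponectin, read 0.90 and 0.93 in PF68 and 0.06 and -0.37 in SWCNT and was not called (-1.07 ± 0.21; adjusted p = 0.0628; chosen after its values were seen). Skeletal muscle genes averaged -0.18 and -0.35 in PF68 and -0.33 and -0.27 in SWCNT, with 1 of 28 called higher, Mybpc2, a myosin-binding protein (1.26 ± 0.20), and 11 of the 28 dim in both groups. Cardiac muscle had 1 of 23 called higher, Myl7, an atrial myosin chain that mouse pulmonary veins carry too (0.74 ± 0.11), and a median of -0.10. Basal and squamous epithelium had none of 19 called (limma; 1 higher and 1 lower at an unadjusted p under 0.05), with 9 dim in both groups. Without all muscle, squamous and adipocyte genes, 312 genes were called, 202 higher and 110 lower.

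Lymphocyte and antigen presentation lists held few calls. MHC class II genes had 1 of 14 called higher, Ctss, and 2 lower (15 listed; median 0.08). H2-Eb1, a class II chain, read 4.91 and 4.55 in PF68 and 3.40 and 3.33 in SWCNT (-1.37 ± 0.15). H2-DMb2, which loads peptides, read 2.54 and 2.68 in PF68 and 1.10 and 0.68 in SWCNT (-1.72 ± 0.25), on a probe set that can bind its close relative. Interferon-induced antiviral genes had none of 34 called higher and 2 lower (38 listed; median -0.20). Rsad2, viperin, read 3.73 and 3.82 in PF68 and 3.02 and 2.90 in SWCNT (-0.81 ± 0.11), but its other probe sets gave 0.42 and 1.69, so its direction depends on the probe set. Oas3, an oligoadenylate synthetase, read 0.62 and 0.27 in PF68 and -2.84 and -1.72 in SWCNT (-2.72 ± 0.36), dim in both SWCNT arrays. The T cell list had 1 of 21 called, Il7r, the interleukin-7 receptor (higher, 1.05 ± 0.17). None of 28 B cell markers was called by limma (2 higher and 5 lower at an unadjusted p under 0.05; median -0.25), nor of 19 markers of NK and cytotoxic cells (0 and 3; median -0.28) or 21 of dendritic cells (5 and 1; median 0.13). Over all genes tested, 3199 of 13815 passed that unadjusted cut. Outside the B cell list, 2 antibody heavy chain genes, which B and plasma cells express, were called lower (both chosen after their values were seen). Ighg3 read 1.51 and 2.01 in PF68 and -0.46 and -0.27 in SWCNT (-2.12 ± 0.21, adjusted p = 0.0224), with other probe sets at -0.65, 0.52 and -0.11. Igha read 6.57 and 6.60 in PF68 and 5.76 and 5.69 in SWCNT (-0.87 ± 0.11, adjusted p = 0.0349), with other probe sets at -0.45 and -0.89. Tlr7, a receptor for single-stranded RNA, rose by 1.32 ± 0.21 (-0.04 and 1.20 in other probe sets), and Cybb, the catalytic NADPH oxidase subunit of phagocytes, by 0.62 ± 0.10 (-0.12 and 0.08).

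Smaller groups of calls fell in metabolism, signalling and clotting. Glycolysis and hypoxia genes had 3 of 27 called higher and none lower (30 listed; median 0.36, with 17 without overlap on the higher side). Ankrd37, an ankyrin protein induced by hypoxia, read -1.01 and -0.57 in PF68 and 1.42 and 1.51 in SWCNT (2.25 ± 0.17), and the glycolytic enzymes Pgam1 and Ldha rose by 1.02 ± 0.14 and 0.78 ± 0.10. The PF68 day 1 mean of Ankrd37 was 2.69, above its SWCNT day 7 mean of 1.47. Fos, an AP-1 subunit, read 2.75 and 2.35 in PF68 and 3.77 and 3.78 in SWCNT (1.22 ± 0.17) and was the only one called of 28 immediate early genes. Errfi1, a feedback inhibitor of the EGF receptor, rose by 0.71 ± 0.10. In eicosanoid synthesis Tbxas1, thromboxane synthase, and Ptgir, the prostacyclin receptor, rose by 1.46 ± 0.24 and 0.86 ± 0.11, and Pla2g1b, a secreted phospholipase, fell by 0.76 (SE 0.12; 0.51, -1.19 and 0.46 in other probe sets). In the list of coagulation and plasminogen activation 2 of 21 were higher and 2 lower (median 0.07). F10 and F5, which form the complex that makes thrombin, went opposite ways, at 1.35 ± 0.17 and -1.06 ± 0.17, and F13a1 and Serpinb2 were the other members called. The other probe sets of F10 gave 0.40 and 0.36, and that of F5 gave 0.25. Hyou1, a chaperone of the endoplasmic reticulum, was the only one called of 26 unfolded protein response genes, at -0.72 ± 0.10 (-0.23 and 0.35 in other probe sets). Slc4a4, a bicarbonate transporter, rose by 0.97 ± 0.12, with other probe sets from -0.48 to 0.30. Gpm6a, a membrane glycoprotein of mesothelium and neurons, differed by -0.76 ± 0.11, against 0.18 in its other probe set. No member was called in 22 of the 68 lists, whose medians ran from -0.35 to 0.38.

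Several of the largest differences belonged to genes not yet described. Gp2, a membrane glycoprotein of secretory granules, read -1.21 and -1.65 in PF68 and 1.54 and 1.37 in SWCNT (2.88 ± 0.28, adjusted p = 0.0224). Serpinb2, the plasminogen activator inhibitor of macrophages, read -1.85 and -2.84 in PF68 and -0.09 and 0.41 in SWCNT (2.51 ± 0.41). It was 1 of 48 tested genes that passed the filter only through the SWCNT day 7 arrays and so had to be higher there. Prg4, lubricin, read -1.22 and -1.28 in PF68 and 0.62 and 0.87 in SWCNT (1.99 ± 0.15), and Ttll9, a tubulin-modifying enzyme, read 0.98 and 1.12 in PF68 and 2.78 and 2.87 in SWCNT (1.77 ± 0.14; only 0.28 and 0.24 in other probe sets). Among the falls, Pom121l12 read 0.10 and 1.34 in PF68 and -2.41 and -2.09 in SWCNT (-2.97 ± 0.42) and Chst3, a sulfotransferase of chondroitin, read -0.42 and -0.51 in PF68 and -2.38 and -1.83 in SWCNT (-1.64 ± 0.26). Both passed the filter only through the PF68 day 7 arrays, as 57 genes did. Fbp1, an enzyme of gluconeogenesis, read 1.00 and 1.33 in PF68 and -0.23 and -1.03 in SWCNT (-1.80 ± 0.28), and Rasgrf1, an exchange factor for Ras, read 1.27 and 1.59 in PF68 and -0.67 and -0.05 in SWCNT (-1.80 ± 0.26). Both differed widely between the SWCNT arrays. Further probe sets of Rasgrf1, both dim, gave -0.07 and -0.53. Tfr2, a transferrin receptor, and Golt1b, of Golgi transport, differed by -1.77 ± 0.27 and -1.76 ± 0.18, and a second Golt1b probe set gave 0.28. Afp, alpha-fetoprotein, differed by -1.61 ± 0.18, with 4 other probe sets from -2.20 to 0.07. Of the 204 genes called higher 37 were dim in PF68, and of the 113 called lower 22 were dim in SWCNT, where arrays scatter most. Further probe sets existed for 170 called genes, and 81 of them had at least 1 of opposite sign. With dim ones left aside it was 41 of 124.

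The day 7 differences were then set against those on day 1, which had PF68 arrays of its own. For some genes called higher, the PF68 day 1 mean lay above the SWCNT day 7 mean. It was 2.69 against 1.47 for Ankrd37, 4.84 against 3.32 for Lox, 6.12 against 5.43 for Lcn2 and 5.66 against 5.25 for Mt2. Mfap4 (5.15 against 4.87) and Apoe (4.87 against 4.63) were further cases. For Mmp12 and Ctsk it lay below, at -0.52 against 3.33 and 2.30 against 4.15. These genes were picked after their values were seen. The signs of RNA quality also differed between days and groups. On day 1 beta-actin had a 3′ minus 5′ signal of 2.04 and 2.01 in PF68 and 1.31 and 1.36 in SWCNT, below every day 7 array, and that of Gapdh was 1.05 and 1.03 in PF68 and 0.752 and 0.68 in SWCNT. The spikes averaged 4.72 and 4.72 in PF68 and 4.92 and 4.96 in SWCNT, so their SWCNT minus PF68 difference had the opposite sign to that of day 7. The part of these values in the changes between days was not tested. The test of the difference between days called 334 genes, or 2.42%, and SWCNT against PF68 on day 1 called 300, or 2.17%. Of the 204 genes called higher on day 7, 80 also had a day 7 effect called above that of day 1, and of the 113 lower, 38 had one called below. Both sets were chosen by the day 7 difference, which is itself a term of the test between days. That choice alone raises such counts, so they do not show effects particular to day 7. Genes called on both days numbered 40, with 17 higher on both, 10 lower on both and 13 in opposite directions. Ctsk differed by -0.33 on day 1 and 3.39 on day 7, and the change between days was 3.73 (SE 0.21, adjusted p = 0.00505). Ctss turned from -1.29 to 1.07 and Chia1 from -1.12 to 0.72, and in both the change between days passed the test (2.35 and 1.84, adjusted p = 0.00505 and 0.00858). Car3 and Cyp2e1 turned the other way, from 3.41 to -2.30 and from 2.71 to -1.58. The changes were -5.71 and -4.28, with adjusted p = 0.000638 and 0.00351. Bpifa1, the airway protein, went from 1.90 to -1.38, and Cdca8, the mitosis gene, from -1.01 to 1.33. Saa3, Retnla and Cxcl5 were called higher on both days, at 1.57, 1.14 and 1.74 on day 1 and 1.78, 1.02 and 1.67 on day 7. Cyp1a1 and Ngp were called lower on both, at -1.76 and -1.88 on day 1 and -2.39 and -1.47 on day 7. For these 5 the test between days did not pass, which does not show equal effects. The median of the skeletal muscle list was 2.08 on day 1 and -0.01 on day 7, that of the mitosis list -0.43 and 0.80, and that of the interferon-induced antiviral list -1.48 and -0.20. The median of the adipocyte list, which counts Car3, was 0.34 on day 1 and -0.43 on day 7. The medians of both the adipocyte and the skeletal muscle list were higher on day 1 than on day 7, as Car3 was, and their part in its turn was not tested.

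**Figure D5:**
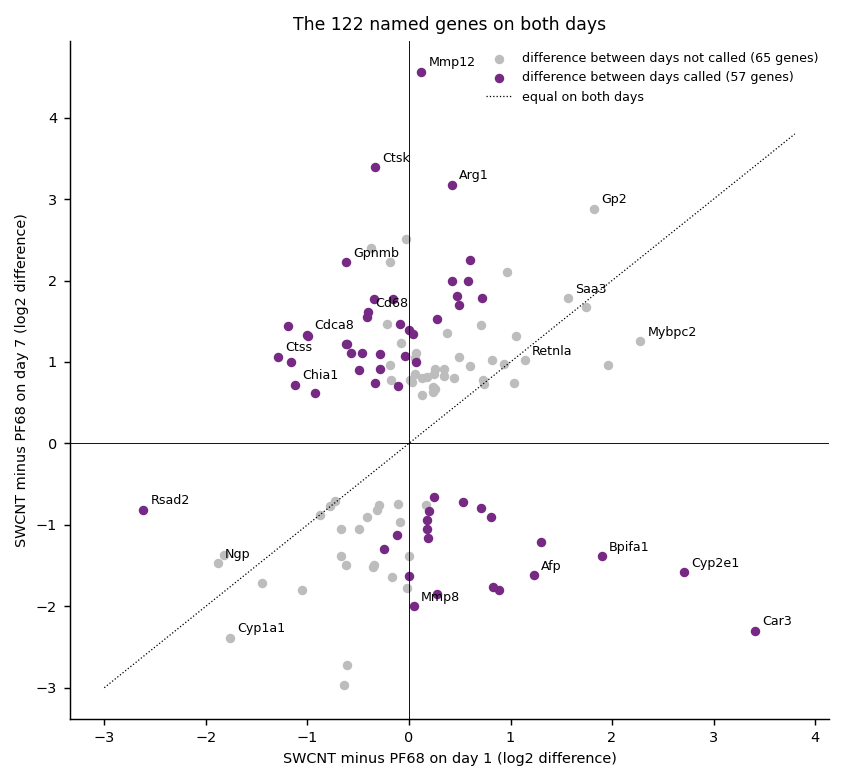
SWCNT minus PF68 difference (log2) on day 1 (horizontal axis) and day 7 (vertical axis) of the 122 genes drawn, 1 point per gene, coloured by the test of the difference between days, with a dotted line where both days would be equal. Mmp12 and Ctsk lie high above the line near 0 on day 1, and Car3 lies at 3.41 on day 1 and -2.30 on day 7.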

How the data were processed

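Total RNA of lung lobes was labelled with biotin and hybridized to Affymetrix arrays, per the labels' protocols. The authors' deposited values were read as log2 signals, with RMA named in the submitters' processing notes and no version given. The base, and the offset that puts the array median below 0, were not given in the sources used here. Another base would scale every log2 difference by 1 factor and change no call. Of 45101 probe sets, 64 controls and 8 with a missing value were left out. Gene symbols came from the platform's annotation: 34939 probe sets had 1 symbol, 932 several and 9160 were not listed. Of the 18191 genes, 18029 had a gene ID in the RefSeq table of GRCm38.p6.

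R 4.3.3 and limma 3.58.1 were used to fit 1 mean per group (4 groups, 8 arrays) by lmFit, then eBayes, which had 1.81 prior degrees of freedom beside 4 residual ones. P-values were adjusted by Benjamini-Hochberg over all 13815 genes, with a threshold of 0.05. The number of arrays limits the precision. No batch is named in the labels. Deviations of same-numbered arrays from their group means correlated at -0.00485 to 0.0108, so the numbers were not used as pairs. Genes named were the 15 largest called rises and 15 largest called falls without overlap of the groups (unnamed, predicted and immunoglobulin genes skipped), and up to 4 called and 2 uncalled members of each list. Not every gene the rule allows is named. Ctsd, Ctsb, Ctsc, Fcer1g, Has1, Lbp, Wfdc21 and S100a9 are called list members named beyond the rule. Other genes outside it are marked. The rule, the 68 lists (44 of processes, 24 of cell types) and their members were chosen with earlier results of these data known, so lists are described by counts and medians and support nothing. Of 1636 list genes 1298 were tested, and 107 of the 317 called genes are in a list. Probe sets that can bind related transcripts measured 3389 tested genes, 87 of them called.

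The procedure was tested on simulated data for the day 7 comparison with 13815 genes: of 100 genes given a change of 1 log2 unit 38 were recovered, of 100 given a change of 2, 75 were, and 5 calls were false. Alternatives covered scaling, filters, choice of probe set, variance model, array weights, a replicate block, thresholds and left-out arrays. Figures were drawn with matplotlib 3.10.9.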

Additional observations from a re-analysis of the deposited data

Results flagged for a closer look

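For 57 of 122 genes examined for the text the SWCNT effect differed between the days, by the limma contrast of the day 7 difference minus the day 1 difference, adjusted over all genes tested (adjusted p 0.000638 to 0.0484). In 37 the day 7 effect lay above that of day 1 and in 20 below, and 12 were called on both days in opposite directions. Of the 122 genes, 119 were called on day 7, and the day 7 difference is a term of the contrast. The choice of genes therefore raises these counts and steers their direction, so they show nothing by themselves. Over all 13815 genes tested, the contrast called 334, or 2.42%. Each value in brackets is that change between days in log2 units, with SEs from 0.14 to 0.41, and the group on each day had 2 arrays. Proteases and cathepsins in this set were Mmp12 (4.45), Ctsk (3.73), Ctss (2.35), Ctsd (1.20), Ctsz (1.12), Ctsc (1.08), Ctsl (0.93) and Mmp8 (-2.05). Lysosomal, lipid and receptor genes of macrophages in this set were Gpnmb (2.84), Cd68 (2.02), Apoe (1.67), Atp6v0d2 (1.57), Fcer1g (1.39), Clec7a (1.38), Olr1 (1.30), Tlr7 (2.32) and Cybb (1.55). Alternative activation, ribonuclease and chemokine genes in this set were Arg1 (2.76), Chia1 (1.84), Ear3 (1.41), Ccl8 (2.16), Ccl3 (1.92) and Ccl9 (1.40). Matrix genes in this set were Mfap4 (1.97), Fn1 (1.56) and Lox (1.24). Genes of division and replication in this set were Mki67 (2.63), Cdca8 (2.34), Kif22 (1.83) and Fen1 (-1.23). Secreted and neutrophil proteins and metallothionein in this set were Lcn2 (1.33), Lrg1 (1.06), Mt2 (1.21), S100a8 (-1.34) and S100a9 (-1.01). Genes of the airway lining and of xenobiotic or glutathione metabolism in this set were Aldh3a1 (-2.13), Cyp2e1 (-4.28), Gstm1 (-1.50), Gpx2 (-1.12), Bpifa1 (-3.28), Bpifb1 (-1.05) and Lypd2 (-1.63). Genes of adipose, pericyte and alveolar type 1 lists in this set were Car3 (-5.71), Nnat (-1.71), Cox4i2 (-2.51) and Pdpn (-0.91). The remaining genes were Ttll9 (2.12), Fos (1.84), Rsad2 (1.80), Ankrd37 (1.65), Prg4 (1.57) and Errfi1 (0.82) on the side of day 7 above day 1. Those below were F13a1 (-1.03), Hyou1 (-1.26), Golt1b (-2.59), Rasgrf1 (-2.68) and Afp (-2.84). Groups of 2 arrays are too small to test a single array as an outlier.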

How the results depend on the processing

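The number of called genes depended strongly on the processing, and under every alternative that called any gene, more were higher than lower. Against 317 called (204 higher, 113 lower), cyclic loess (257), robust eBayes (240), no probe sets of related transcripts (235) and a filter on the day 7 arrays alone (237) stayed within 1.5 times. Counts rose to 615 (386 higher, 229 lower) with at least 4 of 8 arrays above the median, 1530 (845, 685) with an intensity trend, 1259 (761, 498) at an adjusted p of 0.10, and 5905 (5823 higher) with spike scaling, where 82 were lower. They dropped to 155 (98, 57) with a difference of at least 1, 101 (69, 32) with array weights, 73 (48, 25) with the mean of a gene's probe sets, 54 (34, 20) with the probe set of largest spread, 24 (18, 6) with no filter and 8 (6, 2) at an adjusted p of 0.01. With the replicate block, which tests a pairing the labels do not state, 15 (12, 3) were called. The 4 day 7 arrays fitted alone gave 0 calls by limma, 0 higher and 0 lower, with 2494 genes at an unadjusted p under 0.05. Leaving out 1 array at a time left 0 to 7 called, 0 to 5 higher and 0 to 2 lower. That called genes kept their sign then follows from their non-overlap and is no sign of stability. Some named genes changed direction with another probe set: Rsad2 to 0.43 (mean of probe sets) and 1.69 (largest spread), Cybb to -0.12 and Gpm6a to 0.18 (largest spread), and, without probe sets of related transcripts, Fen1 to 0.19, Pla2g1b to 0.51 and Gpm6a to 0.18. The causes of these changes were not tested. Signals below the array median limit the dim genes, and with 2 arrays a group the spread is borrowed from other genes.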
